A study of Mus musculus with 6 samples.

Results

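The lipolysis genes described here are the enzymes that take stored triglyceride apart step by step, together with the small proteins that switch the first enzyme on or off. They were chosen by symbol as 9 genes, Pnpla2, Lipe, Mgll, Abhd5, G0s2, Hilpda, Pnpla3, Abhd6 and Faah, and all 9 were found among the 18507 genes of the table. Each of them also passed the low-count filter, which left 15347 genes. RNA was sequenced from the brown fat between the shoulder blades of C57BL/6 mice on chow at 22 °C. There were 3 wild-type libraries (WT) and 3 libraries from Beclin1-/- mice (Beclin1_KO), which the series title describes as adipocyte-specific knockouts. Tamoxifen at 75 mg/kg by gavage on 5 days was given to both genotypes, so neither group is free of the drug. The sources used here give neither the Cre driver nor the age and sex of the animals. Replicates are biological, per the design text.

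Lipolysis runs in sequence. Adipose triglyceride lipase, the product of Pnpla2, removes the first fatty acid from triglyceride. Hormone-sensitive lipase, from Lipe, then cleaves diacylglycerol, and monoglyceride lipase, from Mgll, releases glycerol. ABHD5 is the coactivator of the first lipase, and G0S2 and HILPDA are small proteins that inhibit it. In brown fat the released fatty acids are fuel for heat production and activate the uncoupling protein. PNPLA3 is a droplet protein related to the first lipase that competes with it for ABHD5. ABHD6 and fatty acid amide hydrolase, from Faah, act on monoacylglycerols and on fatty acid amides, among them endocannabinoids.

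Start regions of genes in the set are shown because the members moved in different directions. Any link between their letters and the direction or size of a change was not tested. RefSeq sequence on build GRCm38.p6 was available for all 9 genes, with 13 annotated start regions of 250 bases before to 50 bases after a start. They were searched on both strands for ACGTG, the core letters of the hypoxia response element, for the E-box CACGTG, which contains ACGTG on both strands, for the nuclear receptor half-site AGGTCA and for the sterol element TCACNNCAC. Hilpda, known to be induced by hypoxia, held ACGTG once, before the downstream of its 2 starts. The letters also stood before the more upstream of the Lipe starts searched, but not before the other. The annotated genes Lipe and Faah reach further upstream than any start searched. Lipe ends at 25398486, against a start at 25395987, and Faah at 116018837, against 116017924. Those outer ends were not searched. Both starts of Mgll had ACGTG, and the upstream one is shown. Capitals mark ACGTG or its reverse complement in these windows of 30 bases, which are at chr6:29272571-29272600 (plus strand), chr6:88724356-88724385 (plus strand) and chr7:25396125-25396154 (minus strand).
Hilpda: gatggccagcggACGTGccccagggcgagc
Mgll: gggggccgggcaCACGTGgggccccggcgc
Lipe: aacagggacgacCACGTGagggggcggagg
ACGTG was found in 19.6% of all 32851 start regions of the same length, CACGTG in 7.15%, AGGTCA in 16.3% and TCACNNCAC in 3.77%. The start regions of Pnpla2, G0s2, Pnpla3 and Abhd6 held no match to these letters, Abhd5 held AGGTCA on the minus strand, and Faah held TCACNNCAC. The 250 bases before the starts of the related genes Pnpla2 and Pnpla3 are printed because these genes share a protein family and fell by different amounts. They lie at chr7:141454938-141455187 and chr15:84167566-84167815, both on the plus strand, and have no capitals because no searched motif occurred in them.
Pnpla2: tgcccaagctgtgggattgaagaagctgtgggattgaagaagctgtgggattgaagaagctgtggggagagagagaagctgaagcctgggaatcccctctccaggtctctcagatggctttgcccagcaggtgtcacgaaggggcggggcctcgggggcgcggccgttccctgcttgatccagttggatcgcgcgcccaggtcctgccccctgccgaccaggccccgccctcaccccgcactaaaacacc
Pnpla3: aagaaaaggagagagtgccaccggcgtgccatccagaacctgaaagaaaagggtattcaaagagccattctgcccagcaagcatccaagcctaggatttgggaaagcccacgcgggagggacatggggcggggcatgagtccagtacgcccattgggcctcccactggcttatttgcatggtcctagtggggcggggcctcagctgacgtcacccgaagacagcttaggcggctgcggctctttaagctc

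Total counts were 44269031 to 50842488 in WT and 50536315 to 60983193 in Beclin1_KO. Becn1, the targeted gene, stood at 82.8 to 89.2 CPM in WT and at 42.7 to 58.0 CPM in Beclin1_KO, where CPM is counts per 1000000 scaled by TMM. Gene counts were compared with edgeR, and a gene is said to have risen or fallen when its adjusted p over all genes tested was below 0.05. By that rule 46.6% of all genes tested passed, 24.8% higher and 21.8% lower in Beclin1_KO. The labelled tissue was checked against its markers. Ucp1, the uncoupling protein of brown fat, was present at 9750 ± 1798 CPM in WT and 1899 ± 752 CPM in Beclin1_KO (SD, n = 3 each).

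Of the 9 lipolysis genes, 6 fell, 2 rose and Abhd5 did not pass. The fallen genes were the 3 lipases of the sequence, the inhibitor gene G0s2, Pnpla3 and Abhd6, and those that rose were the inhibitor gene Hilpda and Faah. The median log2 fold change was -1.26, against 0.05 over all genes tested. With 46.6% of all genes passing, a call on its own says little about these genes. CPM did not overlap between the groups for 8 of the 9, 2 higher and 6 lower in Beclin1_KO, against 59.7% of all genes tested, 31.4% higher and 28.2% lower. When the most muscle-rich library in each group (WT replicate 2, Beclin1_KO replicate 1) was left out, a setting chosen after seeing the data, 31.8% of genes passed (18.5% higher, 13.3% lower), and of the lipolysis genes 2 rose and 5 fell.

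**Figure D1:**
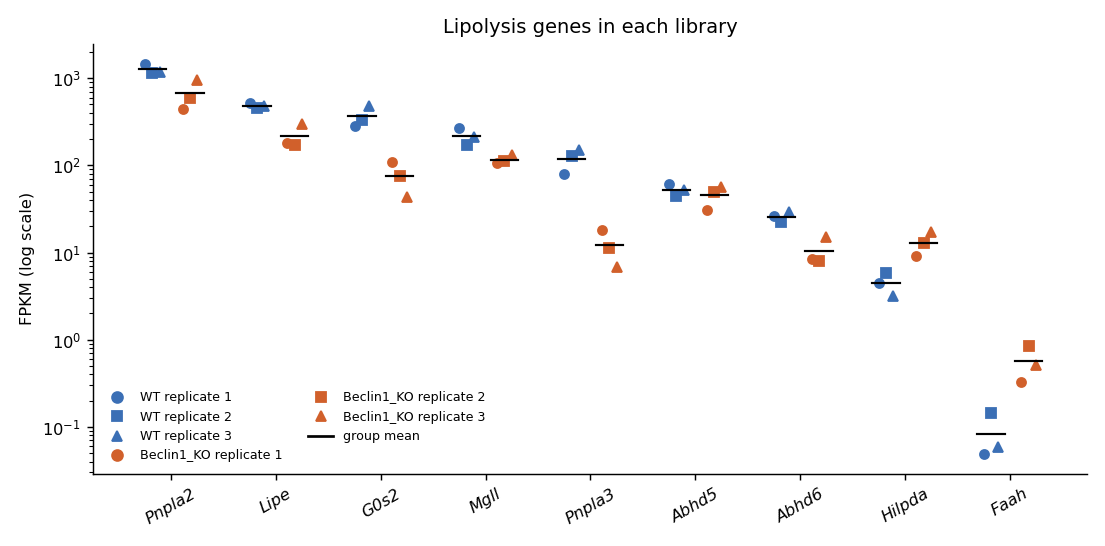
FPKM of each gene (log axis) in the 3 WT libraries (blue) and the 3 Beclin1_KO libraries (orange), with a black bar at each group's mean. Symbols mark replicate numbers. Pnpla2 stood highest in both groups, Abhd5 is the gene whose groups overlap, and Hilpda and Faah are the genes higher in the knockouts.

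Levels between genes can be set side by side as FPKM, which is per length. The edgeR fold changes rest on TMM-scaled counts instead. Relative to these, FPKM stood higher in Beclin1_KO, as described further on, so FPKM shows smaller falls and larger rises. In WT the order was Pnpla2, Lipe, G0s2, Mgll, Pnpla3, Abhd5, Abhd6, Hilpda and Faah, with means from 1266 down to 0.0837 FPKM. The ranges of the libraries separated every neighbouring pair in WT except Lipe and G0s2. Pnpla2 ranked 57 among the 18507 genes by mean FPKM in WT and 101 in Beclin1_KO. In Beclin1_KO the order was Pnpla2, Lipe, Mgll, G0s2, Abhd5, Hilpda, Pnpla3, Abhd6 and Faah. There the ranges of G0s2 overlapped those of Mgll and Abhd5, and the range of Pnpla3 overlapped those of Hilpda and Abhd6. Pnpla3 moved from rank 641 to rank 5814, and Hilpda from 7913 to 5571.

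Transcripts of the 3 lipases that act in sequence were all lower in Beclin1_KO, by 2.38-fold to 2.80-fold. Pnpla2 (chromosome 7, 141455188 to 141460743, GRCm38) stood at 1475, 1134 and 1190 FPKM in WT and at 448, 600 and 965 FPKM in Beclin1_KO. The highest knockout library, replicate 3, lay below the lowest WT library, replicate 2, and the knockouts differed among themselves more than the WT libraries did. In CPM the level fell from 3837 ± 419 to 1599 ± 649 (SD, n = 3), a log2 fold change of -1.26 (SE 0.30, edgeR adjusted p = 0.0141). Pnpla2 no longer passed when Beclin1_KO replicate 2 was left out (adjusted p = 0.0551) or when the most muscle-rich library in each group was (log2 fold change -1.13, adjusted p = 0.0804). Its adjusted p ran from 4.8e-05 to 0.0804 over 17 alternatives.

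Lipe (chromosome 7, 25379527 to 25398486) measured 519, 457 and 475 FPKM in WT and 181, 173 and 299 FPKM in Beclin1_KO. Its WT libraries lay close together, and replicate 3 was again the highest knockout. The log2 fold change was -1.49 (SE 0.26, adjusted p = 0.00399), and Lipe passed in all 17 alternatives. An antisense gene, 4732471J01Rik, overlaps exons of Lipe. It had 144 to 572 counts per library, against 26745 to 72755 for Lipe.

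Mgll (chromosome 6, 88724412 to 88828360) measured 267, 173 and 214 FPKM in WT and 105, 112 and 132.5 FPKM in Beclin1_KO. The knockout libraries were close to each other, and the groups did not overlap. Mgll fell by 1.25 on the log2 scale (SE 0.20, adjusted p = 0.00257) and passed in all 17 alternatives. Since these are bulk samples, fewer adipocytes and less of a transcript per adipocyte cannot be told apart for any of these falls. In the same libraries 11 of 13 adipocyte markers fell, with a median log2 fold change of -1.70. Their summed level went from 22000 to 28250 CPM in WT to 4739 to 7841 CPM in Beclin1_KO, and 0 of the 13 were at 0 counts in any library.

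Abhd5, the coactivator of the first lipase, is the member that did not pass. The gene (chromosome 9, 122351616 to 122381524) stood at 60.9, 44.4 and 52.7 FPKM in WT and at 30.7, 49.6 and 56.4 FPKM in Beclin1_KO. In FPKM replicate 1 was low among the knockouts, and replicates 2 and 3 lay within the WT range. In CPM the knockouts were at 90.2, 134 and 163 against 159 to 209 in WT, so only replicate 3 overlapped. The log2 fold change was -0.56 (SE 0.23, adjusted p = 0.0875), with an unadjusted 95% interval of -1.11 to -0.01. Without Beclin1_KO replicate 3 the change of Abhd5 was -0.77 with an adjusted p of 0.0302, against a range of 0.0302 to 0.431 over 17 alternatives.

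The inhibitors of the first lipase went in opposite directions. G0s2 (chromosome 1, 193272160 to 193273188) is abundant in adipocytes. Its level was 282, 334 and 478 FPKM in WT and 110, 75.8 and 43.7 FPKM in Beclin1_KO. Every knockout library was below every WT library, and replicate 3, the knockout highest in Pnpla2, was the lowest in G0s2. G0s2 fell by 2.62 on the log2 scale, or 6.14-fold (SE 0.41, adjusted p = 0.00301).

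Hilpda (chromosome 6, 29272488 to 29275449) was far less abundant and rose. It measured 4.43, 5.87 and 3.21 FPKM in WT, and 9.14, 12.9 and 17.0 FPKM in Beclin1_KO. These FPKM rest on 164 to 297 counts per WT library and 463 to 1042 counts per knockout library, and the groups did not overlap. In CPM the level of Hilpda went from 5.10 ± 1.395 to 11.6 ± 3.53 (SD, n = 3). That was a rise of 1.18 on the log2 scale, or 2.27-fold (SE 0.29, edgeR adjusted p = 0.0159). The call was lost without WT replicate 1 (log2 fold change 1.10, adjusted p = 0.0617) or WT replicate 3 (0.998, adjusted p = 0.0619), with adjusted p of 0.000752 to 0.0619 over 17 alternatives.

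Beside the rise of Hilpda, which macrophages are also known to express, 15 of 15 macrophage markers rose, with a median log2 fold change of 4.37. The summed macrophage markers went from 315 to 370 CPM in WT to 5899 to 10270 CPM in Beclin1_KO, and 0 of them were at 0 counts in any library. Hilpda was highest in Beclin1_KO replicate 3, the knockout library with the lowest macrophage sum. The part of these cells in the rise of Hilpda was not tested.

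Set against each other within a library, Hilpda amounted to 1.57%, 1.76% and 0.671% of the FPKM of G0s2 in WT and to 8.31%, 17.0% and 38.9% in Beclin1_KO. G0s2 thus remained the more abundant inhibitor transcript in each of the 6 libraries. Both together came to 19.4%, 29.99% and 40.45% of the FPKM of Pnpla2 in WT, and to 26.6%, 14.8% and 6.29% in Beclin1_KO. The groups overlap in that sum, since knockout replicate 1 lies above WT replicate 1. These 2 measures were chosen after the values were seen and carry no test.

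Pnpla3 showed the largest fall among the 9 genes. In mice it is known as a gene of lipogenic conditions, induced by insulin and carbohydrate through SREBP factors. The gene (chromosome 15, 84167776 to 84189521) stood at 80.5, 127.5 and 149.8 FPKM in WT and at 18.2, 11.35 and 6.85 FPKM in Beclin1_KO. The lowest WT library was above the highest knockout library, and both were replicate 1. Pnpla3 fell by 3.66 on the log2 scale, or 12.6-fold (SE 0.47, adjusted p = 0.00134), and passed in all 17 alternatives. An annotated transcript gene on the same strand, Gm49513, overlaps exons of Pnpla3 and is not analysed here.

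Abhd6 and Faah, the hydrolases linked to endocannabinoids, went opposite ways. Abhd6 (chromosome 14, 8002888 to 8056773) measured 26.3, 22.4 and 29.0 FPKM in WT and 8.44, 7.998 and 15.0 FPKM in Beclin1_KO, without overlap. Abhd6 fell by 1.65 on the log2 scale (SE 0.29, adjusted p = 0.00417). Mgll, which shares the monoacylglycerol substrate with Abhd6, was 10.2, 7.75 and 7.38 times as high in FPKM in WT and 12.5, 14.0 and 8.81 times as high in Beclin1_KO. The groups overlap in this ratio, which was also chosen after the values were seen.

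Faah (chromosome 4, 115996668 to 116018837) was the least abundant of the 9. Its counts numbered 9, 28 and 12 for WT, and 65, 179 and 122 for the knockouts, or 0.0487, 0.144 and 0.0588 FPKM against 0.331, 0.850 and 0.511 FPKM. The groups were separate, with replicate 2 the highest library of each. Faah rose by 2.34 on the log2 scale, or 5.08-fold (SE 0.55, adjusted p = 0.0123), to a level still below 1 FPKM. The call was lost without WT replicate 3 (log2 fold change 2.16, adjusted p = 0.0526), with adjusted p of 0.000288 to 0.0526 over 15 alternatives, and the log2 fold change was 3.18 when the most muscle-rich library in each group was left out. Macrophage, fibroblast and lymphocyte markers were higher in the same libraries, and their part in the rise of Faah was not tested.

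**Figure D2:**
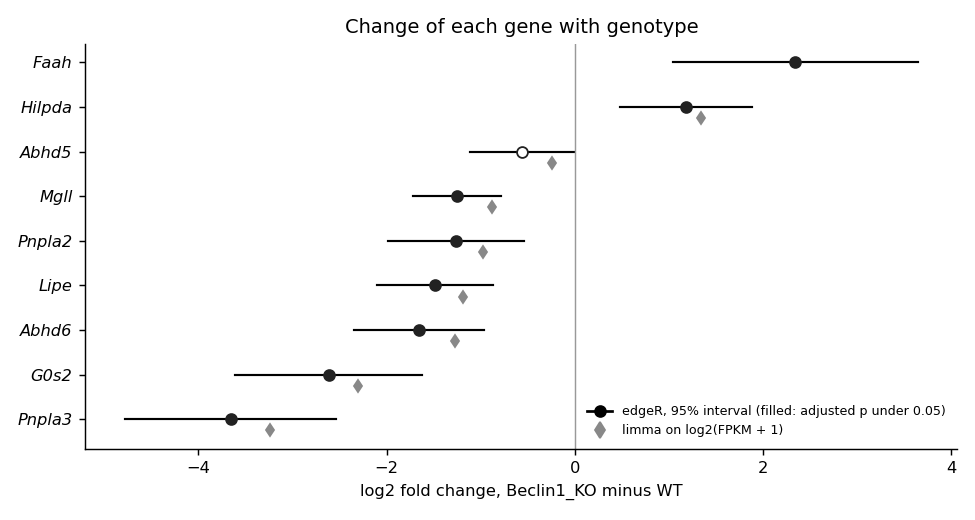
Log2 fold change of each gene, Beclin1_KO minus WT. Circles and lines give the edgeR estimate with its 95% interval, filled where the adjusted p was below 0.05, and grey diamonds give the limma estimate on log2(FPKM + 1). Pnpla3 and G0s2 lie farthest left, Hilpda and Faah lie right of 0, and Abhd5 is the open circle.

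Scaling the counts by RLE or by the upper quartile moved the log2 fold change of Pnpla2 from -1.26 to -1.27 or -1.25. The FPKM fit moved the values further, and it differs from the edgeR fit in unit, pseudocount, filter and test as well as in scaling. The TMM factors of edgeR separated the groups, at 0.828 to 0.935 in WT and 1.09 to 1.19 in Beclin1_KO. The part of each of these differences in the shift was not tested. On the log2(FPKM + 1) scale, fold changes of genes tested in both fits were higher by a median of 0.32 (0.34 with 0.1 added). There 53.0% of genes passed (39.3% higher, 13.7% lower), and 74.2% of the calls were higher in Beclin1_KO, against 53.3% with edgeR. The 8 lipolysis genes tested on that scale kept their sign, and 1 passed as higher and 6 as lower. Pnpla2 was at -0.98, Lipe at -1.19, Mgll at -0.88, G0s2 at -2.30, Pnpla3 at -3.24, Abhd6 at -1.27, Abhd5 at -0.24 and Hilpda at 1.34. Faah was below the minimum of 1 FPKM and was not tested there. In the authors' deposited table, 44.3% of genes had an adjusted p below 0.05. The signed fold changes there were -2.40 for Pnpla2, -6.15 for G0s2, -12.7 for Pnpla3 and 2.27 for Hilpda. Abhd5 had an adjusted p of 0.0542 in that table. DESeq2 run here on the deposited counts called the same number of genes, 7871, and gave Abhd5 the same adjusted p. The authors' comparison is therefore not a check separate from the DESeq2 alternative.

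A ratio to Pnpla2 within each library needs no scaling between libraries. Lipe kept close to Pnpla2. It was 35.2%, 40.3% and 39.9% of Pnpla2 in WT and 40.4%, 28.8% and 31.0% in Beclin1_KO, and these ranges overlapped. The log2 ratio changed by -0.22 (exact permutation p = 0.4, two-sided). For Mgll the difference was 0.09 (exact p = 0.8) and for Abhd6 -0.38 (exact p = 0.2). The leave-one-out estimates ran from -0.36 to -0.12 for Lipe, from -0.09 to 0.30 for Mgll and from -0.51 to -0.25 for Abhd6, and spanned 0 for Mgll alone among these 3.

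The ratio of Abhd5 to its partner lipase was higher in the knockouts in value. Abhd5 was 4.13%, 3.91% and 4.43% of Pnpla2 in WT and 6.85%, 8.26% and 5.85% in Beclin1_KO. The groups did not overlap, and the log2 difference was 0.74 (exact permutation p = 0.1, the smallest that 20 splits of 3 against 3 allow, and 0.2 adjusted over the 8 ratios). Hilpda was 0.300%, 0.518% and 0.270% of Pnpla2 in WT and 2.04%, 2.15% and 1.76% in Beclin1_KO, a log2 difference of 2.51 (exact p = 0.1, adjusted 0.2). That ratio varied little among the knockouts, with an SD of 0.15 on the log2 scale.

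G0s2 amounted to 19.1%, 29.5% and 40.2% of Pnpla2 in WT and to 24.6%, 12.6% and 4.53% in Beclin1_KO. Knockout replicate 1 lay within the WT range. The log2 difference was -1.34 (exact permutation p = 0.2, adjusted 0.267), and between -1.90 and -0.68 when 1 library was left out. Pnpla3 was 5.46%, 11.25% and 12.6% of Pnpla2 in WT and 4.07%, 1.89% and 0.710% in Beclin1_KO, without overlap, a log2 difference of -2.38 (exact p = 0.1, adjusted 0.2). It was -1.73 without Beclin1_KO replicate 3 and -2.99 without Beclin1_KO replicate 1. The ratio of Faah to Pnpla2 was higher by 3.80 on the log2 scale, with the same exact p, and by 2.79 with 0.1 FPKM added to each value.

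Adipocyte markers give a second yardstick, the geometric mean FPKM of the 13 markers in the same library. Relative to it, the differences between the groups were 0.20 for Pnpla2, -0.01 for Lipe, 0.30 for Mgll and -0.17 for Abhd6 on the log2 scale, with overlapping groups and exact permutation p from 0.4 to 0.9. Groups were separate for Abhd5 (0.94), G0s2 (-1.13), Pnpla3 (-2.18), Hilpda (2.71) and Faah (4.0), each with an exact p of 0.1, or 0.18 adjusted over the 9 ratios. With 3 libraries a group the exact permutation test cannot go below 0.1. The ratio of Faah to the markers was 2.995 with 0.1 FPKM added to each value. For G0s2 the difference was -1.17 without Ucp1, Lep and Thrsp among the markers (exact permutation p = 0.2). With all markers its nearest libraries were Beclin1_KO replicate 1, at 112% of the markers, and WT replicate 1, at 119%. Of the 13 markers, Plin1, Plin4, Cidec, Cidea and Adrb3 also stand in the lists of pathway genes described further on. Log2 fold changes of the 13 markers by edgeR ran from -3.45 for Thrsp to 1.53 for Lep, which did not pass. Marker level may move for reasons other than adipocyte number, so these ratios are a description.

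**Figure D3:**
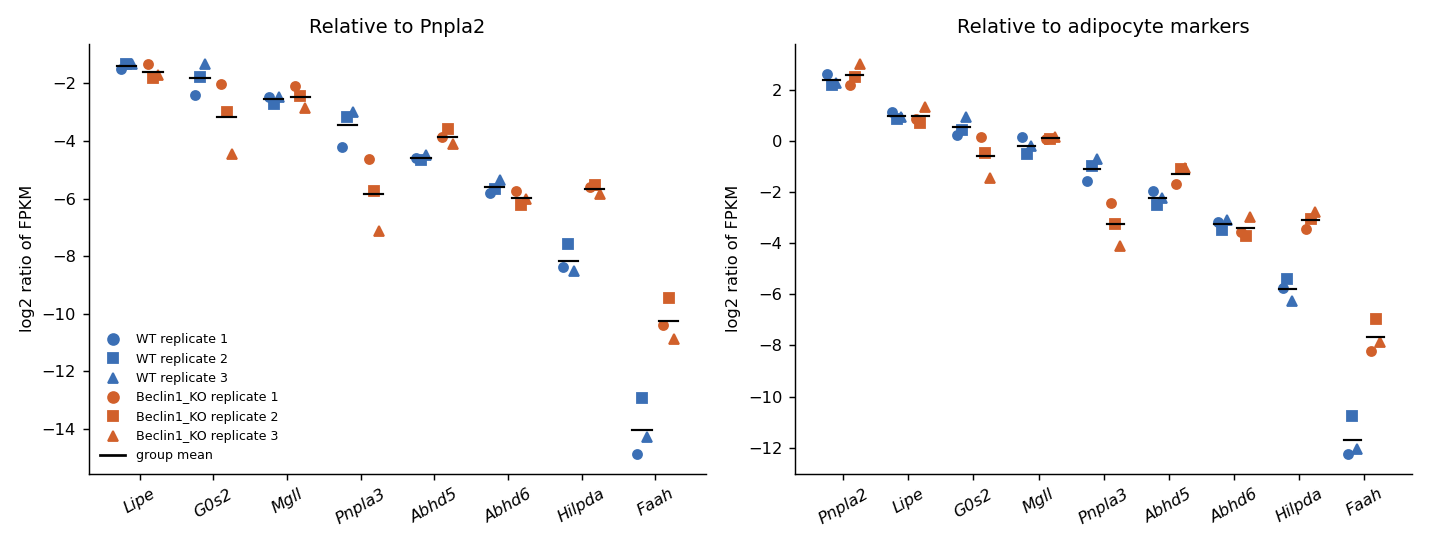
Log2 ratio of FPKM of each gene to Pnpla2 (left) and to the geometric mean of 13 adipocyte markers (right) in each library. Blue marks WT, orange Beclin1_KO, symbols the replicate number and black bars the group mean. Hilpda and Faah are higher and Pnpla3 is lower in the knockouts in both panels, while Lipe, Mgll and Abhd6 overlap between the groups.

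Among the knockout libraries the genes did not vary together. Replicate 3 was the highest knockout in FPKM for Pnpla2, Lipe, Mgll, Abhd5, Abhd6 and Hilpda, and the lowest for G0s2 and Pnpla3. Replicate 1 was the highest knockout for G0s2 and Pnpla3 and the lowest for Pnpla2, Mgll, Abhd5, Hilpda and Faah. The same libraries differed in markers of other cells. Summed skeletal muscle markers were 44030, 10470 and 1990 CPM in knockout replicates 1, 2 and 3, and 777, 23490 and 1588 CPM in the WT libraries. None of the 15 muscle markers passed between the groups by edgeR. Summed adipocyte markers were 4739, 4934 and 7841 CPM in the knockouts, and Becn1 was lowest in replicate 3, at 42.7 CPM. Their part in the differences among knockouts was not tested. Of the markers of other cells, 9 of 10 fibroblast and progenitor genes rose, 7 of 10 lymphocyte genes rose and 2 fell, and 8 of 10 endothelial genes fell and 1 rose. Of the neutrophil genes 1 of 5 tested rose, and of 7 Schwann cell genes 2 rose and 1 fell.

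WT libraries also differed in this way. Pnpla2 and Mgll were highest in WT replicate 1, in which G0s2 and Pnpla3 were lowest. G0s2 and Pnpla3 were highest in WT replicate 3. With 3 libraries a group no relation between these genes could be tested.

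Genes with the profile most like a member over the 6 libraries were sought among 11117 genes of at least 5 CPM. Likeness was the root mean squared difference in log2 CPM after each gene was centred on its own mean. These profiles include the difference between the groups, so genes with a similar fold change can match. With 46.6% of all genes tested passing, close matches among so many genes say little, and no link was tested. For Lipe the closest were Cox8b, a cytochrome oxidase subunit gene (0.03), Ndufv3, a complex I gene (0.07), and C030006K11Rik (0.07). Closest to Pnpla2 were Ormdl3 (0.08), a regulator of sphingolipid synthesis, the cardiolipin synthase gene Crls1 (0.09) and the mitochondrial carrier gene Slc25a23 (0.10). Mgll was closest to Cidec, a droplet fusion protein gene (0.06), Hspa12b (0.08) and Tpmt (0.08). Near Hilpda were Rhou (0.11), H2-Q6 (0.13) and Arntl2 (0.16). Matches to Faah, which had 9 to 28 counts per WT library, were looser, with Tspan11 (0.31), Gimap3 (0.35) and Znf41-ps (0.36).

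Genes around the lipases were mostly lower as well. Of 8 genes of droplet coat and CIDE proteins, 6 fell, 0 rose, and Plin2 and Plin3 did not pass, with a median log2 fold change of -1.44. Plin1, the perilipin that holds ABHD5 at the droplet of resting adipocytes, fell 3.56-fold, from 1093 ± 71.4 to 307 ± 79.8 CPM (SD, n = 3, adjusted p = 0.000752). Plin5, the perilipin of oxidative tissues, fell 3.10-fold and Cidec 2.385-fold. Cideb, a CIDE gene of low level here, fell 3.56-fold. Plin2, a coat protein found in many cell types, stood at 1313 ± 240 and 1681 ± 459 CPM (adjusted p = 0.279) and was named after its values were seen.

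Signals that switch lipolysis on pass from adrenergic receptors through cyclic AMP to protein kinase A, which phosphorylates perilipin and hormone-sensitive lipase. Of 29 genes of this signalling and its brakes, 15 fell, 3 rose and 11 did not pass (median -0.63). Prkaca, which encodes a catalytic subunit of the kinase, fell 3.81-fold (adjusted p = 0.000112), and its regulatory subunit Prkar2b fell 4.49-fold. The kinase anchor gene Akap1 fell 5.04-fold, the adenylyl cyclase Adcy6 2.56-fold and the receptor Adrb3 2.03-fold. The phosphodiesterase Pde3b, through which insulin restrains lipolysis, fell 2.71-fold. The genes that rose were Gnai2, Prkar1b and Npr3, named after their values were seen.

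Transcription factors known to act on these genes numbered 18, of which 10 fell, 2 rose and 6 did not pass (median -0.81). Pparg, a direct activator of Pnpla2 and G0s2, fell 2.05-fold (adjusted p = 0.0117). Foxo1, which induces Pnpla2 when insulin is low, fell 1.91-fold, from 92.5 ± 29.4 to 48.4 ± 4.36 CPM (adjusted p = 0.0136). Irf4, a fasting-induced activator of lipolysis genes in fat, fell 5.29-fold (adjusted p = 0.0114). Mlxipl, the carbohydrate-sensing factor ChREBP, fell 3.83-fold, Ppara 3.87-fold, Cebpa 3.10-fold and Nr1h3, the liver X receptor alpha gene, 1.52-fold. The factors that rose were Foxo3 and Egr1, named after their values were seen.

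Hypoxia-inducible genes, listed because Hilpda is one, did not move one way. Of 24, 7 rose, 9 fell and 8 did not pass, with a median of 0.02. Vegfa fell 3.75-fold, Pdk1 3.85-fold, Pfkfb3 5.70-fold and Higd1a 3.06-fold. Among those that rose, named after their values were seen, were the carbonic anhydrase gene Car9 (3.74-fold), Pfkfb4 (2.99-fold), the glucose transporter gene Slc2a1 (2.64-fold) and Ndrg1 (2.05-fold). Hif1a, the oxygen-regulated factor itself, stood at 57.4 ± 7.64 and 96.2 ± 39.3 CPM (adjusted p = 0.0681).

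Genes that handle the products of lipolysis were lower in 10 of 13, higher in 1 (Fabp5, named after its values were seen) and did not pass in 2 (median -1.23). Dgat2, which puts fatty acids back into triglyceride, fell 8.41-fold, Agpat2, an acyltransferase of glycerolipid synthesis, 7.57-fold and Acsl1, which activates fatty acids, 4.31-fold. Pck1 encodes an enzyme on a route to glycerol phosphate for that cycle. It fell 4.26-fold, from 5989 ± 566 to 1406 ± 744 CPM (adjusted p = 0.00442).

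Other acylglycerol hydrolases and the genes listed with them did not share one direction. Of 12 tested, 7 fell, 2 rose and 3 did not pass (median -0.92). These counts include the Lpl partners Gpihbp1 and Lmf1, which are not hydrolases. The genes that rose were Lipa, the acid lipase of lysosomes, which went from 173 ± 49.6 to 377 ± 56.0 CPM (2.19-fold, adjusted p = 0.00718), and Pnpla7, a lysophospholipase of the patatin family (2.2-fold, adjusted p = 0.00259). Lipa is also expressed by macrophages, whose markers are given above, and their part in its rise was not tested. Lpl, the lipase at the vessel wall, stood at 4802 ± 192 and 3564 ± 534 CPM (adjusted p = 0.101). Ces1f fell 3.46-fold, and the Lpl partners Gpihbp1 and Lmf1 fell 2.00-fold and 2.37-fold.

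Of 18 other ABHD genes, 7 fell, 3 rose and 8 did not pass (median -0.33). Abhd15, an adipocyte protein linked to insulin's restraint of lipolysis, fell 2.60-fold, Abhd17a, a depalmitoylase gene, fell 1.55-fold, and Abhd2 rose 1.95-fold. Abhd12, a further monoacylglycerol hydrolase, rose 1.91-fold (adjusted p = 0.00371). In FPKM, Abhd12 stood at 33.5 to 43.2 in WT and at 75.75 to 105 in Beclin1_KO, above Abhd6 and below Mgll in each of the 6 libraries, though in knockout replicate 1 Abhd12 (105.0) and Mgll (105.1) were nearly equal.

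Beyond Mgll, Abhd6 and Faah, 16 endocannabinoid genes were tested, of which 6 rose, 4 fell and 6 did not pass (median 0.66). Daglb, one of the enzymes that make the substrate of Mgll, rose 4.26-fold (adjusted p = 0.00137). The acid amidase gene Naaa, which acts on fatty acid amides like Faah, rose 2.57-fold, from 28.7 ± 6.69 to 73.8 ± 10.3 CPM (adjusted p = 0.002005). The receptor gene Cnr2, known from immune cells, rose 6.50-fold, from 1.14 ± 0.17 to 7.39 ± 2.67 CPM (adjusted p = 0.000862). Plcb1, a phospholipase C gene, fell 1.63-fold (adjusted p = 0.002695), and Gde1, Napepld and Plcb3, named after their values were seen, were the other genes that fell. Cnr1 also rose, 3.075-fold, but was low in both groups, at 0.55 ± 0.04 and 1.68 ± 1.05 CPM (adjusted p = 0.043). Abhd12, described above, is counted among the risen genes of this list as well as of the ABHD list. Macrophage markers rose in the same libraries, as given above, and their part in these rises was not tested.

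**Figure D4:**
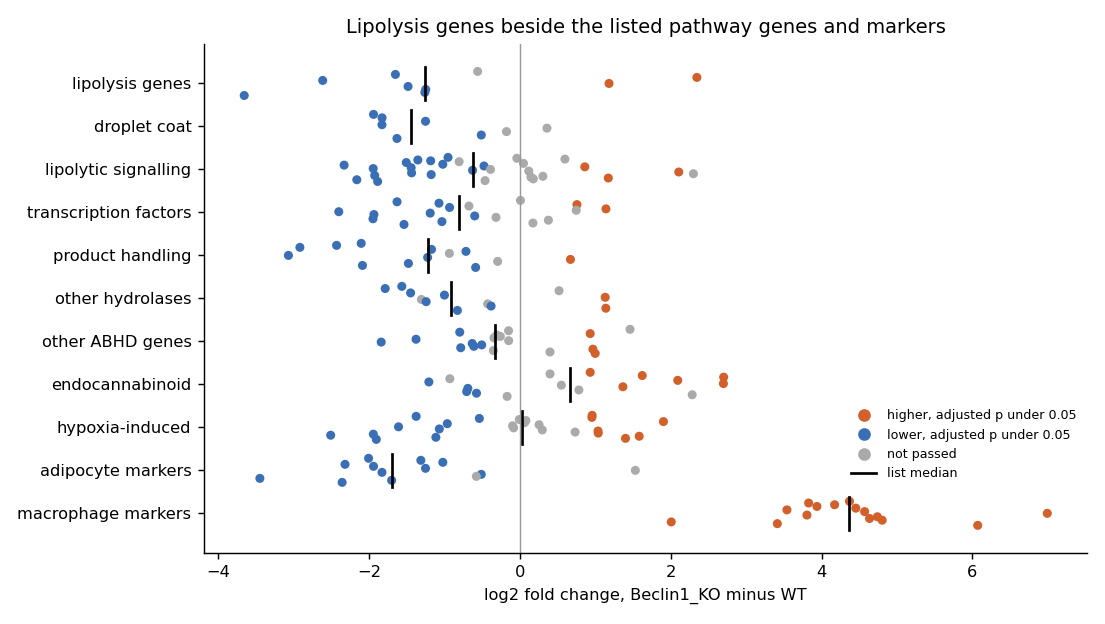
Log2 fold change, Beclin1_KO minus WT, of the 9 lipolysis genes and of the tested genes of 10 lists. Each point is a gene, orange where higher and blue where lower at an adjusted p below 0.05, grey where not passed, and black bars are list medians. Droplet coat and product-handling genes lie mostly left of 0, as do the lipases, while the macrophage markers lie at 2 or above.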

How the data were processed

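The authors deposited 1 table with whole-number read counts per gene, without normalization, and FPKM values, per the file headers. Genome build mm10 and the aligner HISAT2 2.1.0 appear in the submitters' processing notes, as do StringTie 1.3.4d, Trimmomatic, bcl2fastq 2.20.0 and DESeq2, with no roles given. Annotation and strand use in counting are not given in the sources used here, so reads of a gene and its antisense partner cannot be told apart. The libraries were made with a stranded poly(A) kit, per the labels. A deposited block of log2-like values, whose transformation is not stated, was not used. The authors' deposited comparison holds a signed fold change (a score, negative where the knockout is lower), its standard error (another unit), a p-value and an adjusted p-value. Samples were grouped by title. The edgeR p-values set the difference between the groups against the spread among 3 libraries a group, moderated with that of all genes tested.

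The test on counts was that of edgeR 4.0.16 (R 4.3.3, filterByExpr, TMM, robust quasi-likelihood fit, genotype as the one term). P-values were adjusted by the Benjamini-Hochberg method over all 15347 genes tested. The standard error is the log2 fold change over the root of F. Ratios of FPKM were compared by a two-sided exact permutation test. Alternatives were RLE and upper-quartile scaling, DESeq2 1.42.0, limma 3.58.1 (voom, and log2(FPKM + 1) or log2(FPKM + 0.1) for genes of at least 1 FPKM in 3 samples), the replicate number as a block, other filters, a dispersion that is not robust, and leaving out each library. The fit was tested on simulated data with far fewer changed genes than passed here. That run cannot show how the fit does with so many changes. The members and 16 gene lists were chosen with earlier results of these data known. Genes named were the members, the 4 of smallest p in a list, 17 lead genes whatever their p, and the 3 closest profiles of 5 members. Others are said to be named after their values were seen.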

Additional observations from a re-analysis of the deposited data

How the results depend on the processing

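All 151 values of the 9 genes under the 17 other fits kept their sign, 5 lost their call and 1 gained it. Of 102 counts under these fits, 95 were within 1.5 times the reported count. Genes called lower numbered 3340, against 1706 and 1696 on the log2(FPKM + 1) and log2(FPKM + 0.1) scales, and 2054 when the most muscle-rich library in each group was left out, a setting chosen after seeing the data. There 4914 genes passed. Of the lipolysis genes 1 passed as higher on either FPKM scale, where Faah was not tested. Leaving out 1 library gave 6 to 9 lipolysis genes called, 0 to 2 higher and 5 to 7 lower. The same fits called 5548 to 7229 of all genes tested, 2983 to 3790 higher and 2492 to 3439 lower. The calls of Hilpda (log2 fold change 0.998) and Faah (2.16) were lost without WT replicate 3, and that of Hilpda (1.10) without WT replicate 1. The cause was not tested.

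Ratios kept their sign in 148 of 154 values. With 1 library left out, the log2 differences spanned 0 for Mgll to Pnpla2 (-0.0915 to 0.295), and for Pnpla2 (-0.0262 to 0.397) and Lipe (-0.195 to 0.124) to the adipocyte markers, and Lipe was at 0.10 without Plin1, Cidec, Cidea, Plin4 and Adrb3. With the replicate number as a block, 6403 genes passed and 8 lipolysis genes kept their call. The deviations of same-numbered libraries correlated at -0.31, 0.07 and 0.28, and the labels give no shared litter, batch or day, so the numbers were not taken as pairs. Depth limits Faah most, at 9 to 28 counts per WT library.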
